A study of Mus musculus with 2 samples.

Results

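The 10 genes described here belong to the integrated stress response of mouse cells and were followed in cultured osteoblasts between 5 and 12 days of differentiation. They are Chac1, Trib3, Ddit3, Atf3, Atf4, Atf5, Asns, Nupr1, Ddit4 and Sesn2, out of 18193 genes named on the array, and all of their 17 probe sets were used. The set was selected on the day 5 and day 12 signals of these same arrays, because Chac1, Trib3 and Atf3 were higher at day 12, so the differences below are a description and carry no test. CD11b-negative cells (CD11b is a myeloid surface protein) from the skull roof of newborn mice were grown with 50 µg/ml ascorbic acid and 10 mM β-glycerophosphate, which permit collagen matrix and mineral to form, for 5 days in one sample and 12 days in the other. Both samples shared this medium and neither received any other treatment; strain, genotype and the number of animals pooled are not given in the labels. Each day was measured on 1 Affymetrix array, so no value below has a replicate error or a p-value, and every difference compares these 2 arrays.

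The integrated stress response starts when kinases that sense different kinds of stress phosphorylate the translation initiation factor eIF2α. Protein synthesis then falls in general, while the transcription factor ATF4, whose messenger RNA carries short upstream reading frames, is translated more. ATF4 switches on genes for amino acid uptake and synthesis and further transcription factors, among them CHOP (the product of Ddit3) and ATF3. In osteoblasts ATF4 is known as a regulator of amino acid supply for collagen synthesis. Because ATF4 is controlled mainly at translation, the level of its messenger RNA need not follow its activity.

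ATF4 and its C/EBP partners bind a composite element whose core letters are TGATGNAA. These letters were searched on both strands of the RefSeq promoter windows (assembly GRCm38.p6, 250 bases before to 50 bases after each annotated start), and a window was found for each of the 10 genes. They stood in the 250 bases before the start of Chac1, Atf3, Nupr1 and Asns and in the 50 bases after the start of Trib3. The stretches are shown because these genes hold the letters the pathway's main factor is known to bind; each runs 5′ to 3′ on the strand of its gene, and capitals mark the matching letters. The Ddit4 stretch is shown beside them because its capitals mark ACGTG, the core letters of a hypoxia response element.
Chac1: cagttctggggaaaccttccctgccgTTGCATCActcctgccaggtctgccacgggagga
Atf3: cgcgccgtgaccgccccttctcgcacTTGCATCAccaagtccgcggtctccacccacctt
Nupr1: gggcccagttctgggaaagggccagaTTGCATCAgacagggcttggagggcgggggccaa
Asns: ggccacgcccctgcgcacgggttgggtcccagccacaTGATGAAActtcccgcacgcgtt
Trib3: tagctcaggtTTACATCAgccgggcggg
Ddit4: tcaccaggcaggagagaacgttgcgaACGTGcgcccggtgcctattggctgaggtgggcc

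The Chac1 stretch lies at chr2:119351023-119351082 on the plus strand. The other stretches come from minus-strand genes and lie at chr1:191183410-191183469 (Atf3), chr7:126625547-126625606 (Nupr1), chr6:7693210-7693269 (Asns), chr2:152344029-152344056 (Trib3) and chr10:59951924-59951983 (Ddit4). Chac1, Atf3 and Nupr1 held the same 8 letters, TTGCATCA, which read TGATGCAA on the other strand. Their first base lay 193 bases before the start in Chac1 and 110 bases before it in both Atf3 and Nupr1. The Asns match, TGATGAAA, was on the gene's own strand and began 23 bases before the start. In all, 4 of the 10 genes (40%) held the letters in the 250 bases before the start, beside 3.91% of 27025 genes with a window and 2.36% of the 8551 measured genes with one. Over the whole window the counts were 5 of 10 and 4.51% of all genes. The letters ACGTG, which are also part of the E-box CACGTG, occurred before the start of Ddit4, Asns and Nupr1, 3 of 10 genes (30%), beside 18.5% of all genes and 25.7% of measured genes, a share close to the members' own; the Nupr1 match was such an E-box. The endoplasmic reticulum stress response element (CCAAT, 9 bases of any kind, then CCACG), bound by the other arms of the unfolded protein response, was in no window of the 10 genes and in 0.137% of all genes. A match describes the letters in a window and does not show binding. The 10 genes were listed as genes of the ATF4 pathway. A high share of TGATGNAA among them is therefore no independent result.

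Of the 10 genes, 5 had at least a 2-fold higher signal at day 12, the other 5 differed by less than 2-fold, and none was 2-fold lower. Chac1, Trib3, Atf3, Nupr1 and Ddit4 were the 5 higher ones, and Ddit3 at 1.99-fold was just short of the limit. Across all 10479 measured genes, 3.56% passed 2-fold on the higher side and 1.73% on the lower side. These shares stand beside the member count as background only, since the same difference chose the members. The median log2 ratio of day 12 over day 5 was 1.14 over the 10 genes and -0.05 over all measured genes, whose quartiles were -0.27 and 0.17. A gene counted as measured where its brightest probe set reached the array's floor, the 60th percentile of signal (46.6 at day 5 and 44.8 at day 12), on at least 1 array. All 10 genes did so, but Trib3 and Atf3 only through their day 12 signal, so their ratios are lower bounds taken against the floor. Of the 17 probe sets, 15 were measured, 12 of them on both arrays, and 13 of the 15 were higher at day 12. The Trib3 and Atf3 probe sets among the 13 were measured only through day 12, so the filter all but fixed their direction. By gene, 43.6% of all measured genes had a log2 ratio above 0.

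**Figure D1:**
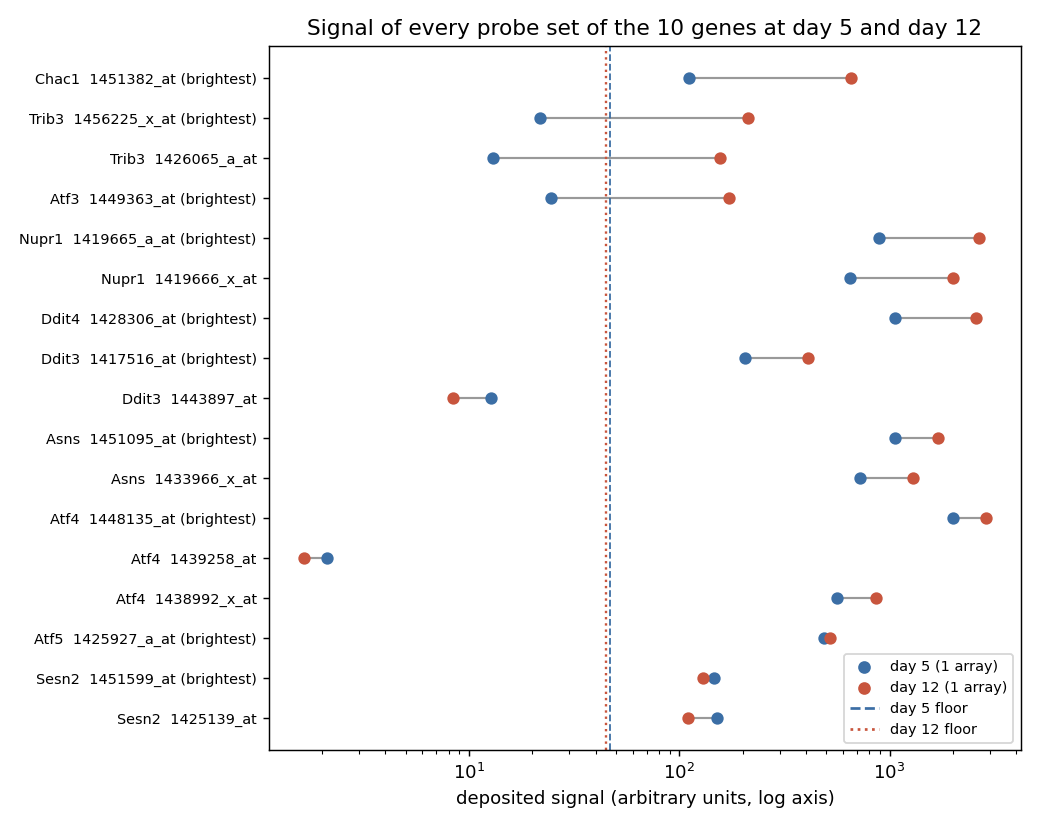
Deposited signal (log axis, arbitrary units) of each of the 17 probe sets at day 5 (blue) and day 12 (red), 1 array each, with the floor of each array as a dashed or dotted line. Trib3 and Atf3 cross the floors between the days, Chac1, Nupr1 and Ddit4 lie above them on both, and the dimmest probe sets of Ddit3 and Atf4 lie below them on both.

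Of the 8 members measured on both arrays, Chac1 had the largest ratio. Chac1 encodes an enzyme that breaks down glutathione, the main thiol antioxidant of the cell. Its single probe set read 111.5 at day 5 and 657.4 at day 12, which is 5.90-fold higher, and both values were well clear of the floor. Only 52 of 10479 measured genes (0.496%) had a larger ratio. Trib3 encodes a pseudokinase that binds ATF4 and the kinase AKT and acts as a brake on the response. Its brighter probe set went from 21.9 to 212.5 and its other one from 13.0 to 155.5. Day 5 lay below the floor in both, so the difference was at least 4.56-fold by the first and at least 3.33-fold by the second. The brighter Trib3 probe set is of the type (_x_at) that may share probes with other sequences. The dimmer measured probe sets of Nupr1, Asns and Atf4 are of this type too. Nupr1, a small stress-induced chromatin protein, had signals of 892.5 and 2663.4 in one probe set and 649.2 and 1997.8 in the other. Both gave nearly the same difference, 2.98-fold and 3.08-fold higher at day 12. Asns encodes asparagine synthetase, a standard reporter of amino acid shortage. It went from 1065.7 to 1707.8 and from 723.7 to 1291.3 in its 2 probe sets, 1.60-fold and 1.78-fold higher, so both were higher at day 12 and neither reached 2-fold.

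The transcription factors of the response differed by unequal amounts between the days. Atf3, an immediate stress-induced repressor and activator of the bZIP family, read 24.6 at day 5, below the floor, and 172.4 at day 12, at least 3.70-fold higher. Ddit3 encodes CHOP, the bZIP factor tied to cell death under long stress, and went from 205.7 to 410.2. This difference of 1.99-fold was above 2-fold after median centring, quantile normalisation or loess, with log2 ratios of up to 1.09, and 0.94 with a pseudocount. The second Ddit3 probe set lay below the floor on both arrays, at 12.7 and 8.35. Atf4 itself went from 1997.0 to 2888.4 and from 560.0 to 860.4 in its measured probe sets, 1.45-fold and 1.54-fold higher. The dimmest Atf4 probe set had signals of 2.11 and 1.63, below the floor. Atf5, a close relative of Atf4 that is also controlled through upstream reading frames and acts in the mitochondrial stress response, had signals of 485.9 and 519.6, a log2 ratio of 0.10. Thus Atf3 differed most among the bZIP members, Ddit3 and Atf4 less, and Atf5 was nearly level between the days.

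Both members that restrain the growth kinase complex mTORC1 were measured on both arrays and went different ways. Ddit4 (REDD1), an inhibitor of mTORC1 induced by hypoxia and by ATF4, had signals of 1057.8 and 2581.1, 2.44-fold higher at day 12. Sesn2, which encodes the leucine sensor sestrin 2, had signals of 146.4 and 129.1 in one probe set and 150.7 and 109.8 in the other. It was the only member with a lower signal at day 12, with log2 ratios of -0.18 and -0.46. Each of its probe sets was lower, and the distance between them, 0.28, exceeded the median distance of 0.17 between the 2 brightest probe sets of 4446 genes.

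Agreement between probe sets is the only repeat measurement in these data, and it does not cover differences between cultures. In the 5 members with 2 measured probe sets the log2 ratios differed by 0.04 for Nupr1, 0.09 for Atf4, 0.15 for Asns, 0.28 for Sesn2 and 0.45 for Trib3, the last between bounds. In Nupr1, Atf4, Asns and Sesn2 the measured probe sets went the same way. Those of Trib3 were both below the floor at day 5 and measured only through day 12, so they could hardly disagree. Chac1, Atf3, Atf5, Ddit3 and Ddit4 rested on 1 measured probe set each.

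Near relatives of the members all lay within 2-fold. None of the 11 measured genes of 16 listed paralogs and bZIP relatives was past 2-fold in either direction, and their median log2 ratio was -0.32. Chac2, the constitutive relative of Chac1, had signals of 273.4 and 314.6, a log2 ratio of 0.20. Trib2 had signals of 671.2 and 735.1 (0.13), and Trib1, Nupr1l, Batf2 and Batf3 lay below the floor on both arrays. Ddit4l, the relative of Ddit4, had signals of 481.8 and 353.8 (-0.45) in its brightest probe set and log2 ratios of -0.19 and 0.01 in the others. The other sestrins were lower at day 12 than at day 5 in every measured probe set. Sesn3 went from 1371.5 to 737.1 (1.86-fold lower) and Sesn1 from 796.1 to 481.4 (1.65-fold lower), so all 3 sestrin genes had a lower signal at day 12. Among bZIP relatives Jdp2, a repressor that pairs with ATF3, had a log2 ratio of -0.53, Batf of -0.56, Atf7 of -0.32 as a bound, Atf6b of -0.07 and Atf2 of 0.24. Atf6, the membrane-bound factor of another arm of the unfolded protein response, was 1.58-fold higher in its brightest probe set (204.0 and 321.7), while its other measured probe sets had log2 ratios of 0.23 and 0.10. Of all measured genes 7.25% passed 1.5-fold on the higher side and 7.7% on the lower side. For 2-fold these shares were 3.56% and 1.73%, so 11 genes can all lie within 2-fold without standing apart from other genes.

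**Figure D2:**
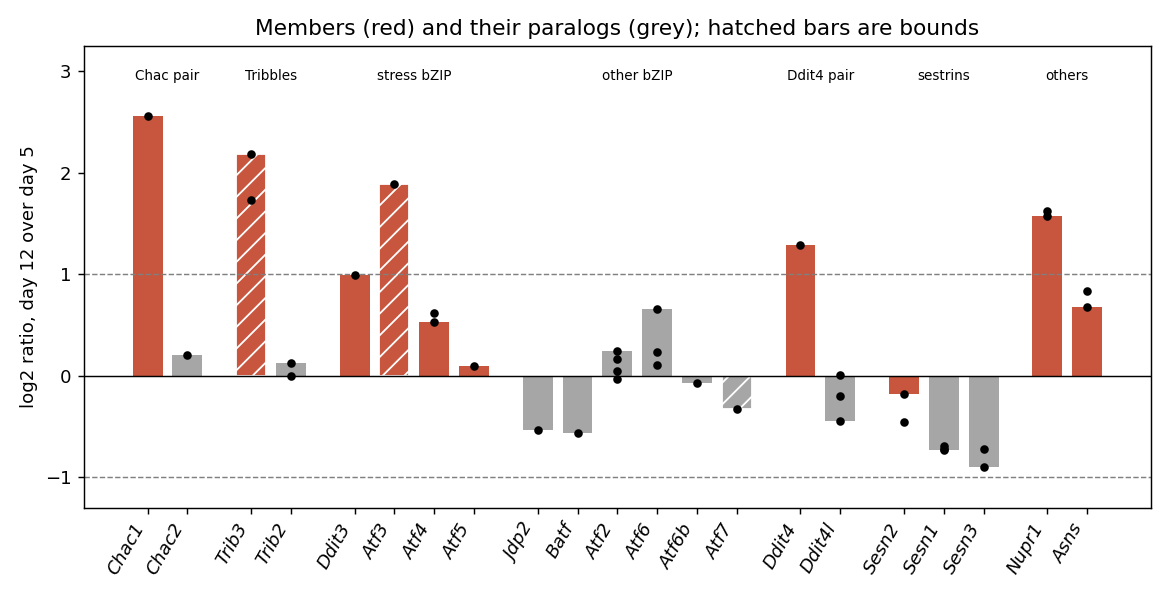
Log2 ratio of day 12 over day 5 for the members (red) and their measured paralogs (grey); bars give the brightest probe set, points every measured probe set, hatching a bound against the floor, and dashed lines 2-fold. Chac1, Trib3 and Ddit4 stand above 1 while Chac2, Trib2 and Ddit4l lie between -0.45 and 0.20, and all 3 sestrins lie below 0.

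Upstream of ATF4, the listed genes that set eIF2α phosphorylation differed by less than 2-fold in their brightest probe sets, with Eif2ak2 furthest apart. None of 18 measured genes was past 2-fold on a list of eIF2α kinases, eIF2 and eIF2B subunits, phosphatase subunits and factors that act on the kinases (Dele1, Oma1, Impact and Gcn1), and their median log2 ratio was 0.00. Eif2ak3 (PERK), which senses unfolded protein in the endoplasmic reticulum, had signals of 712.2 and 696.9, a log2 ratio of -0.03. Eif2ak4 (GCN2), which senses uncharged tRNA, went from 145 to 99.0 (-0.55) and Eif2ak1 (HRI), which senses heme shortage and mitochondrial stress, from 127.0 to 101.5 (-0.32). Eif2ak2 (PKR), a sensor of double-stranded RNA, was lower in all 3 of its probe sets, with signals of 270.4 and 151.8 (1.78-fold lower) in the brightest. The kinases were therefore level or lower at day 12. Ppp1r15a (GADD34), the stress-induced phosphatase subunit that ends the response and is itself a target of ATF4 and CHOP, went from 154.7 to 232.8, a log2 ratio of 0.59. Its constitutive counterpart Ppp1r15b had a log2 ratio of 0.06, and the catalytic subunit gene Ppp1ca of 0.01. The probe sets of Eif2b2 disagreed, with log2 ratios of 0.09, 0.02 and -1.47. Across all measured genes 3.56% passed 2-fold on the higher side and 1.73% on the lower side. The lack of such a gene among 18 therefore does not set this list apart. The arrays measure messenger RNA, and phosphorylation of eIF2α was not measured.

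The bZIP partners of ATF4 were also less than 2-fold apart in all 13 cases, with a median log2 ratio of 0.24. Among them Cebpg had a log2 ratio of 0.19, Cebpb of -0.22, and Maf and Nfe2l1 were nearest to 0 at 0.02 and -0.06. Since only 3.56% and 1.73% of all measured genes passed 2-fold on the higher and lower side, the 13 partners do not stand apart here.

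Genes for amino acid supply, the best known task of ATF4, were mostly somewhat higher at day 12. Of 35 measured genes on the lists for serine, glycine and one-carbon synthesis, for proline and sulfur amino acids and for transport and tRNA charging, 28 had a log2 ratio above 0, 2 were at least 2-fold higher and none was 2-fold lower. Their median log2 ratio was 0.35. Of all measured genes, 43.6% were above 0 and 3.56% were at least 2-fold higher. The 2 genes past 2-fold belong to mitochondrial one-carbon metabolism. Aldh1l2, which oxidises formyl-tetrahydrofolate in mitochondria, went from 219.1 to 737.2 (3.37-fold) and Shmt2, which splits serine there, from 284.1 to 606.6 (2.13-fold). Further mitochondrial enzymes of this pathway had log2 ratios of 0.96 (Mthfd1l) and 0.62 (Mthfd2). The cytosolic enzymes that make serine differed less, with log2 ratios of -0.16 for Phgdh and 0.09 for Psat1. Shmt2 and Phgdh were read from probe sets of the type (_x_at) that may share probes with other sequences. All 5 measured genes of the proline and sulfur list were above 0, from 0.22 for Got1 and 0.39 for Cth to 0.68 for Bcat1. On that list, Aldh18a1 and Gpt2 were read from probe sets of shared sequence (_x_at and _s_at). Without probe sets of these types the median log2 ratio of the list went from 0.43 to 0.23. Among transporters Slc7a5 had a log2 ratio of 0.84 and its partner Slc3a2 of 0.69, while Slc43a1 was at -0.03 and Slc1a5, the lowest of the list, at -0.29. Of 12 tRNA synthetase genes, 9 were above 0 and none was past 2-fold, with a median of 0.25, and Tars was nearest to 0 at 0.02.

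Other genes listed as targets of ATF4 or CHOP were split between a few large differences and many small ones. Of 24 measured, 5 were at least 2-fold higher, none was 2-fold lower, and the median log2 ratio was 0.33. The 5 were Vldlr, Stc2, Vegfa, Ero1a (an oxidase of protein folding induced by CHOP) and Jmjd6, at log2 ratios of 3.35, 2.96 (a bound), 2.77, 1.86 and 1.11. Vegfa and Ero1a are also on the hypoxia list. Without that list's genes and the members, 3 of 21 (Vldlr, Stc2 and Jmjd6) were past 2-fold, with a median of 0.25. Across all measured genes 3.56% were at least 2-fold higher. The hypoxia list holds 20 chosen genes, so others that answer hypoxia may remain among the 21. Eif4ebp1, a translation inhibitor, had a log2 ratio of 0.84, and Atg12 and Tnfrsf10b were nearest to 0 at -0.01 and -0.02. Vldlr and Eif4ebp1 were read from probe sets of the type (_x_at) that may share probes with other sequences. Fgf21 (11.4 and 42.2) and Adm2 (2.54 and 35.8) were below the floor on both arrays.

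The other arms of the unfolded protein response went without a 2-fold difference in any of 20 measured genes, and 13 of them had a lower signal at day 12. Their median log2 ratio was -0.15, beside -0.05 over all measured genes, of which 43.6% had a log2 ratio above 0. Only 3.56% of all measured genes passed 2-fold on the higher side and 1.73% on the lower side. Lists this short can therefore lack such a gene without standing apart. Hspa5 (BiP), the main chaperone of the endoplasmic reticulum, had signals of 7114.4 and 6597.2, and the chaperone gene Hsp90b1 had the lowest ratio at -0.64. At the high end of the list were Atf6 at 0.66 and Ern1 at 0.58. Sec61b and Sel1l were nearest to 0 at 0.05 and -0.07. The mitochondrial stress list, which holds chaperones and proteases and the member Atf5, had no gene past 2-fold among 10 measured, with a median of 0.15. The protease gene Lonp1 was highest at 0.95, and Clpx and Atf5 were nearest to 0 at 0.05 and 0.10.

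Several members are also known to answer signals other than eIF2α phosphorylation, and the lists for those signals differed from each other. Of 20 hypoxia genes, which include Ddit4, 18 passed 2-fold on the higher side, and the median log2 ratio was 2.48. The summed signal of the list was 17874.6 at day 5 and 66984.3 at day 12. Egln3, Ndufa4l2, Ankrd37, Car9, Slc2a1 and Bnip3 led it with ratios from 2.91 to 5.61, of which those of Egln3, Ankrd37 and Car9 were bounds. In that list only Adm (0.80) and Ldha (0.99) had a smaller ratio than Ddit4. Of 16 measured p53 targets, which include Sesn2 and Sesn1, none was past 2-fold and 12 were below 0, with a median of -0.22. Cdkn1a, the cell cycle inhibitor p21, was the highest of them at 0.74, and Bbc3 and Ccng1 were nearest to 0 at 0.10 and -0.13. All measured genes had a median of -0.05, with 43.6% above 0. Of these genes 3.56% passed 2-fold on the higher side and 1.73% on the lower side. The lack of a p53 target past 2-fold therefore does not set that list apart. Of 11 measured immediate early genes, which like Atf3 answer acute stimuli and handling, 1 was past 2-fold, Ier3 at 3.43-fold, and the median was 0.21. Egr1 was at -0.38, Fos at 0.66, and Klf6 and Klf2 nearest to 0 at 0.01 and 0.03. The part of hypoxia, p53 or acute stimulation in the members' differences was not tested.

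**Figure D3:**
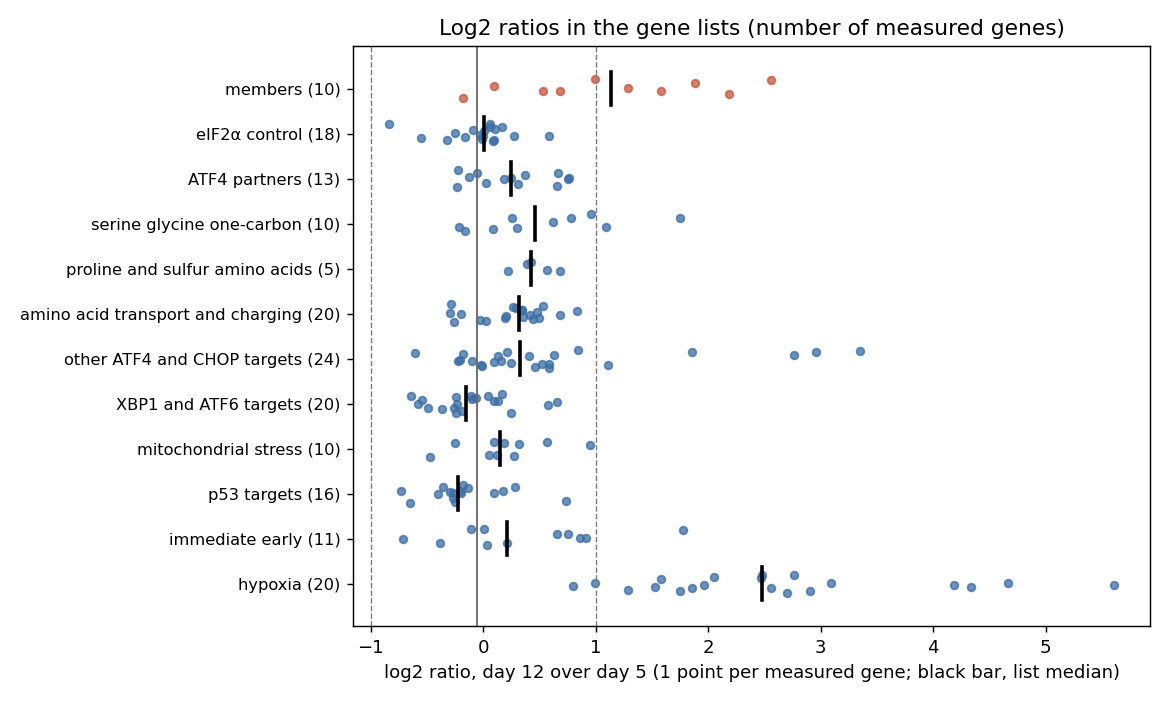
Log2 ratio of day 12 over day 5 for every measured gene of 12 lists (1 point per gene, vertical jitter only), with list medians as black bars, the median of all measured genes as a grey line and 2-fold as dashed lines. The hypoxia list has a median of 2.48, the members 1.14, and the other 10 lists have medians between -0.22 and 0.46.

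Markers of several cell types also differed between the days. Of 10 listed osteoblast markers, Runx2, Bglap and Spp1 lacked a uniquely named probe set and were not analysed. The other 7 were above the floor on both arrays. Of these, 5 passed 2-fold on the higher side (Dmp1, Ibsp, Alpl, Pth1r and Sp7, from 1.79 to 4.33 on the log2 scale). Col1a2 and Col1a1 were at 0.21 and 0.63. Of 12 myeloid markers, Itgam (CD11b) lay below the floor on both arrays at 14.6 and 35.4, while 10 of the 11 measured ones passed 2-fold on the higher side, with a median of 1.33 on the log2 scale and a summed signal of 4526.4 at day 5 and 11123.5 at day 12. The myeloid markers furthest up were Tyrobp, Fcgr3, Cd68, Cd53, Adgre1 and Laptm5, and those nearest to 0 were Cd14 at 1.08 and Fcgr1 at 0.39 as a bound. Chondrocyte markers passed 2-fold on the lower side in 6 of 10 (Matn1, Snorc, Col9a2, Cnmd, Hapln1 and Col9a1, with Matn1 and Snorc as bounds), while Acan and Comp were nearest to 0 at -0.65 and 0.07, with summed signals of 34372.3 and 16003.1. Of 8 endothelial markers 7 were below the floor on both arrays, with Esam the exception at -0.25 and summed signals of 131.1 and 120.1. Of 5 measured adipocyte markers Cd36 (a bound) and Lpl passed 2-fold on the higher side and 3, among them Pparg and Adipoq, were below 0, with summed signals of 1138.1 and 1881.5. In RNA from whole cultures, more cells of a type and more RNA per cell cannot be told apart, and the part of these shifts in the members' differences was not tested.

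With 2 arrays a pattern consists of a pair of signals, and the genes nearest to a member in log2 signal on both arrays are given as a description only. For Chac1 they were Fabp3, Vegfa and Insc, at distances of 0.10 to 0.27. For Trib3 they were Lpar3, Slc36a2 and Atf3 (0.28 to 0.34), for Atf3 Tnfsf9, Fgl2 and Cd84 (0.14 to 0.17), and for Ddit4 Nupr1, Ccn4 and 2310022B05Rik (0.25 to 0.31). Signals of different probe sets also depend on probe affinity, and the day 5 signals of Trib3, Atf3 and their neighbours were all below the floor, so these distances say little.

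The choice of floor moved Trib3, Atf3 and, at the 75th percentile, Chac1. Chac1, Nupr1 and Ddit4 stayed past 2-fold under all 8 alternative settings that give a ratio, from 1.86 to 2.66 for Chac1, 1.56 to 1.63 for Nupr1 and 1.27 to 1.34 for Ddit4. Atf3 was past 2-fold in the 7 settings in which it was measured, and with the floor at the 75th percentile it was not measured on either array. Trib3 was past 2-fold in 7 of 8, and its bound was 0.23 when the floor was set at the 75th percentile and 3.28 at the 50th. With the limit raised to 3-fold, Chac1, Trib3 and Atf3 were past it and Nupr1 was just under it, beside 1.67% of all measured genes on the higher side and 0.344% on the lower. Sesn2 was below 0 in the 7 settings in which it was measured.

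**Figure D4:**
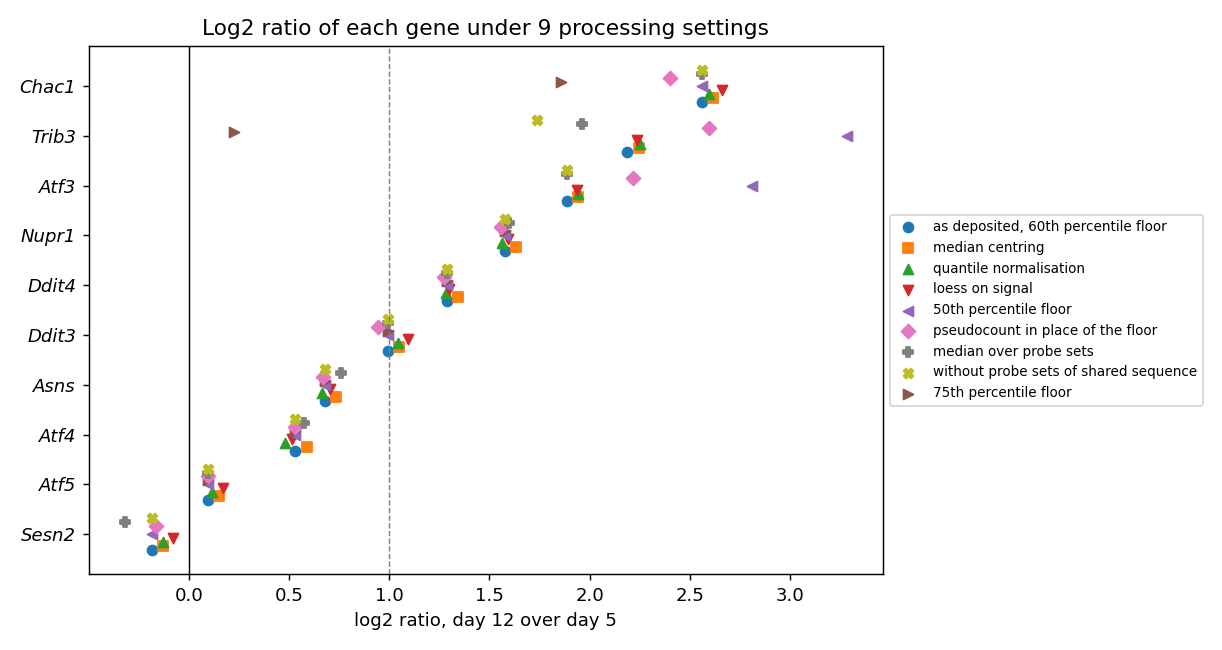
Log2 ratio of day 12 over day 5 of each member under the deposited values and 8 alternative settings, 1 marker per setting, with 2-fold as a dashed line. Nupr1, Ddit4, Asns, Atf4 and Atf5 lie in narrow groups, while Trib3 spreads from 0.23 to 3.28 with the floor; Atf3 and Sesn2 have no marker for the 75th percentile floor.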

How the data were processed

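Biotin-labelled cRNA from total RNA was hybridised to 1 array per sample, per the labels' protocols. The authors deposited linear signal intensity for 45101 probe sets, made with GCOS 1.4 and MAS5, per the submitters' processing notes; which build the probes were mapped to is not given in the sources used here. The 2% trimmed mean was 200.0 on both arrays, so a change in total RNA per cell cannot be seen. Intensities were used without further normalisation. Symbols came from the platform annotation, updated through Entrez numbers in a GRCm38.p6 table. Of 45037 probe sets without the 64 controls, 34945 had 1 symbol, 932 several and 9160 none, and only the first were named. Each gene was represented by its brightest probe set (mean of log2 signal). Any signal under the floor was set to the floor before ratios were formed. Short probes can cross-hybridise between related genes. The number of arrays limits the precision.

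The members and the 18 gene lists were chosen with earlier results of these data known. In the lists, 11 genes lacked a uniquely named probe set and were not analysed here. Named genes are all members, paralogs and eIF2α kinase and phosphatase genes by value, and in other lists genes past 2-fold (up to 6) and the 2 nearest to 0. Other genes given with values, such as Cebpg, Cebpb, Mthfd1l, Mthfd2, Bcat1, Slc7a5, Slc3a2, Slc1a5, Eif4ebp1, Fgf21, Adm2, Hspa5, Hsp90b1, Lonp1, Cdkn1a, Egr1, Fos, Itgam and Eif2b2, were chosen after their values were seen. Alternatives were median centring, quantile normalisation, loess (fraction 0.4), a 50th or a 75th percentile floor, a pseudocount of 16, the median over probe sets, omission of shared-sequence probe sets (_s_at, _x_at), and 1.5-fold and 3-fold limits. A planned protein comparison was not made. The code was tested on simulated data. Software was pandas 2.3.3, numpy 2.4.6 and statsmodels 0.14.6 under Python 3.11.15.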

Additional observations from a re-analysis of the deposited data

How the results depend on the processing

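The 5 members at least 2-fold higher were 5 or 6 under median centring, quantile normalisation, loess, the 50th percentile floor, a pseudocount, the median over probe sets and without probe sets of shared sequence, and 7 at 1.5-fold. With the 75th percentile floor 3 members were past 2-fold, the median log2 ratio of the 8 still measured was 0.84, and 223 genes were higher and 74 lower; fewer genes reach that floor, and values below it are raised to it. With a 3-fold limit 3 members were past it, with 175 genes higher and 36 lower. With a 1.5-fold limit 760 genes were higher and 807 lower. With the 50th percentile floor 297 genes were lower. No member was past the limit on the lower side under any of these settings. Median centring and loess moved the median of all genes from -0.05 to 0.00 and 0.01. No paired analysis was possible because each day has 1 array. Signal close to the floor limits Trib3 and Atf3 at day 5, and no setting stands in for a second culture.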

Other observations

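The letters TGATGNAA were also counted in the 250 bases before the start of the other genes at least 2-fold higher at day 12. Of 290 such genes with a window and outside the 10 members, 14 (4.83%) held them. This stands beside 3.91% of all 27025 genes with a window and 2.36% of measured genes. Among genes at least 2-fold lower, 2 of 127 (1.57%) held them. The 3 with the largest ratios were the lipoprotein receptor gene Vldlr (3.35), the sphingomyelin synthase gene Sgms2 (3.01) and the fatty acid-binding protein gene Fabp3 (2.68). The letters ACGTG stood in the same stretch of 14 of 18 hypoxia genes with a window, beside 25.7% of measured genes. These genes were picked out after their values were seen, and the shares carry no test.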
